A study of Mus musculus with 6 samples.

Results

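In purified mouse corticothalamic projection neurons, 100 of 13545 genes had a peak at postnatal day 3 (P3), with both P3 arrays above all arrays of embryonic day 18 (E18) and of postnatal day 6 (P6). The genes were chosen on these values. Each gene was represented by the probe set with the highest mean among those annotated to exactly 1 gene symbol, and 13545 of 18193 genes had a mean log2 value of at least 6. A gene was a member when its lower P3 value exceeded the highest of the 4 E18 and P6 values by at least 0.3 log2 units and its mean P3 level was at least 1 log2 unit above its mean E18 level. The members made up 0.738% of the genes with that mean, and their number stayed below the limit of 300 set for the group. Differences from E18 to P3 and from P3 to P6 are therefore descriptions of how the genes were picked.

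The arrays held RNA of corticothalamic projection neurons, the cortical cells whose axons run to the thalamus, from wild type C57BL/6 mice. The cells of all 3 stages had been marked by green fluorescent Lumafluor microspheres injected into the thalamus, which axons carried back to the cell bodies, and were then sorted by fluorescence from dissociated cortex. Injections were made at E17.5 for cortex taken at E18.5 (the stage named E18), at P1 for cortex taken at P3 and at P4 for cortex taken at P6, so the beads were in place for 1 day at E18 and for 2 days at P3 and P6. Age and time after injection cannot be told apart between E18 and the later stages. Each stage had 2 arrays, and nothing in the labels says whether these came from separate animals, so a p-value here reflects no more than how far these arrays spread. The sort selects cells by where their axons end, and any other labelled cell that reached the thalamus would enter with them.

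In the days around birth, corticothalamic axons enter the thalamus, wait and branch there, while synapses start to form in the cortex. Axon guidance receptors read cues such as Slits and ephrins along that path. Immunoglobulin and leucine-rich repeat adhesion proteins join the membranes of a forming synapse, and receptors for GABA and glutamate are added to it as the neuron matures. A gene that is highest in the middle of such a series and lower afterwards is called transient here only as a description of 3 sampled ages.

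Corticothalamic and layer 6 markers describe the cells, but a rise with age does not establish identity. A total of 18 such markers had a mean of at least 6. Of these, 13 passed the limma test (adjusted p below 0.05) for a higher level at P3 than at E18. At P6 14 were called higher than at E18, with 1 lower in each contrast, and 0 were members. Among all genes, 15.5% were called higher at P3 and 14.8% at P6. Of 11 layer 5 markers, 7 were called higher and 1 lower at P3, and 6 higher and 0 lower at P6. These counts therefore do not separate corticothalamic from layer 5 neurons. The E18 arrays also carried RNA of dividing cells, since all 20 proliferation genes and 12 of 14 radial glia and progenitor genes were called lower at P3 than at E18. The median proliferation gene measured 11.6 and 11.6 at E18, then 6.54 and 6.70 at P3, then 6.93 and 6.95 at P6. The median corticothalamic and layer 6 marker measured 8.33 and 8.47 at E18, then 10.4 and 9.58 at P3, then 10.9 and 10.8 at P6. The part of that RNA in the differences between E18 and the later stages was not tested. Agreement within a stage varied. Replicates correlated at 0.998 at E18, 0.961 at P3 and 0.976 at P6 over all 45101 probe sets. P3 replicate 2 had the narrowest spread of log2 values (SD 1.85, against 2.03 to 2.16 on the other arrays) and the highest 18S ribosomal RNA signal, at 14.2 log2 units, followed by 13.9 on P6 replicate 1 and 11.3 to 11.8 on the other 4 arrays. The gap between the 3′ and 5′ Actb probe sets measured 0.56 and 0.58 log2 units at E18, then 1.19 and 1.76 at P3, then 1.06 and 0.82 at P6. For Gapdh the same gap measured 1.48 and 1.44 at E18, then 2.55 and 1.68 at P3, then 2.08 and 1.79 at P6. The P3 arrays thus stood in opposite order by Actb and by Gapdh. Added hybridization control probe sets gave means of 9.86 and 9.50 at E18, then 11.9 and 11.7 at P3, then 13.1 and 10.1 at P6. The part of these array differences in the P3 peaks was not tested beyond the values given with each result. In bulk RNA of sorted cells, fewer cells of a type and less RNA per cell cannot be told apart.

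The median member lay at 7.19 log2 units at E18, 8.93 at P3 and 7.77 at P6. Its P3 mean stood 1.33 log2 units above its E18 mean (range over members 1.0 to 3.63), against a median of -0.13 over all 13545 genes. Its P6 mean stood 0.90 log2 units below its P3 mean, with a range over members of -1.89 to -0.40 for P6 minus P3, against a median of 0.17 for all genes. The peak height, the P3 mean minus the higher of the E18 and P6 means, ran from 0.40 for Tsc22d3 to 1.89 for Il4i1. A total of 17 members were at least 4-fold higher at P3 than at E18, and 35 were at least 2-fold higher at P3 than at P6. Many members were dim before their peak, with E18 means under 7 in 42 of them, while 29 reached a P3 mean of at least 10. The brightness of a probe set depends on its probes and does not rank transcripts by amount.

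**Figure D1:**
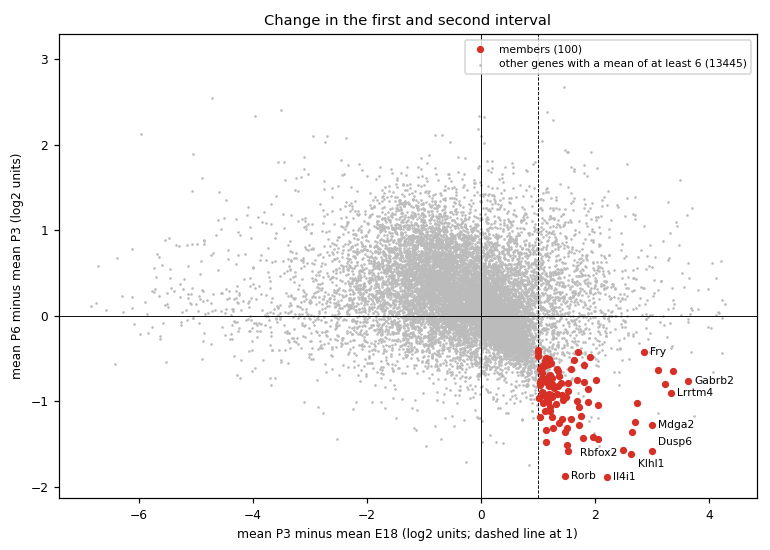
Mean P3 minus mean E18 (x axis, log2 units) against mean P6 minus mean P3 (y axis, log2 units) for the 100 members (red) and the other 13445 genes with a mean of at least 6 (grey). The members occupy the lower right because the rule placed them there, with rises of 1.0 to 3.63 and later differences of -1.89 to -0.40.

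The rule has 2 edges that matter for its members. Kctd8, Nrip2, Il4i1 and Tsc22d3 were nearest the inner side of the gap limit, with gaps of 0.30 to 0.32 log2 units, and Krtap19-1, Galnt13, Apc and Lsm14b missed it with gaps of 0.28 to 0.30. Tsc22d3, Foxb1, Cdx1 and Ovgp1 were nearest the inner side of the rise limit at 1.0 to 1.02, while Il1f9, Slc5a9, Tcf7l2 and Fzd10 missed it at 0.98 to 0.99. The gap was the stricter condition, since 1141 genes met the rise and missed the gap and 89 met the gap and missed the rise. For comparison of shape alone, the mirror rule with P3 lowest found 602 genes.

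Of the members, 95 are protein coding, 4 are long noncoding RNAs and 1 (Egfbp2) was not matched to the RefSeq table. They were sorted by what their products are known to do into 10 groups, after their values had been seen, so the groups serve for description only. The map of the members by array shows every gene against its own mean.

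**Figure D2:**
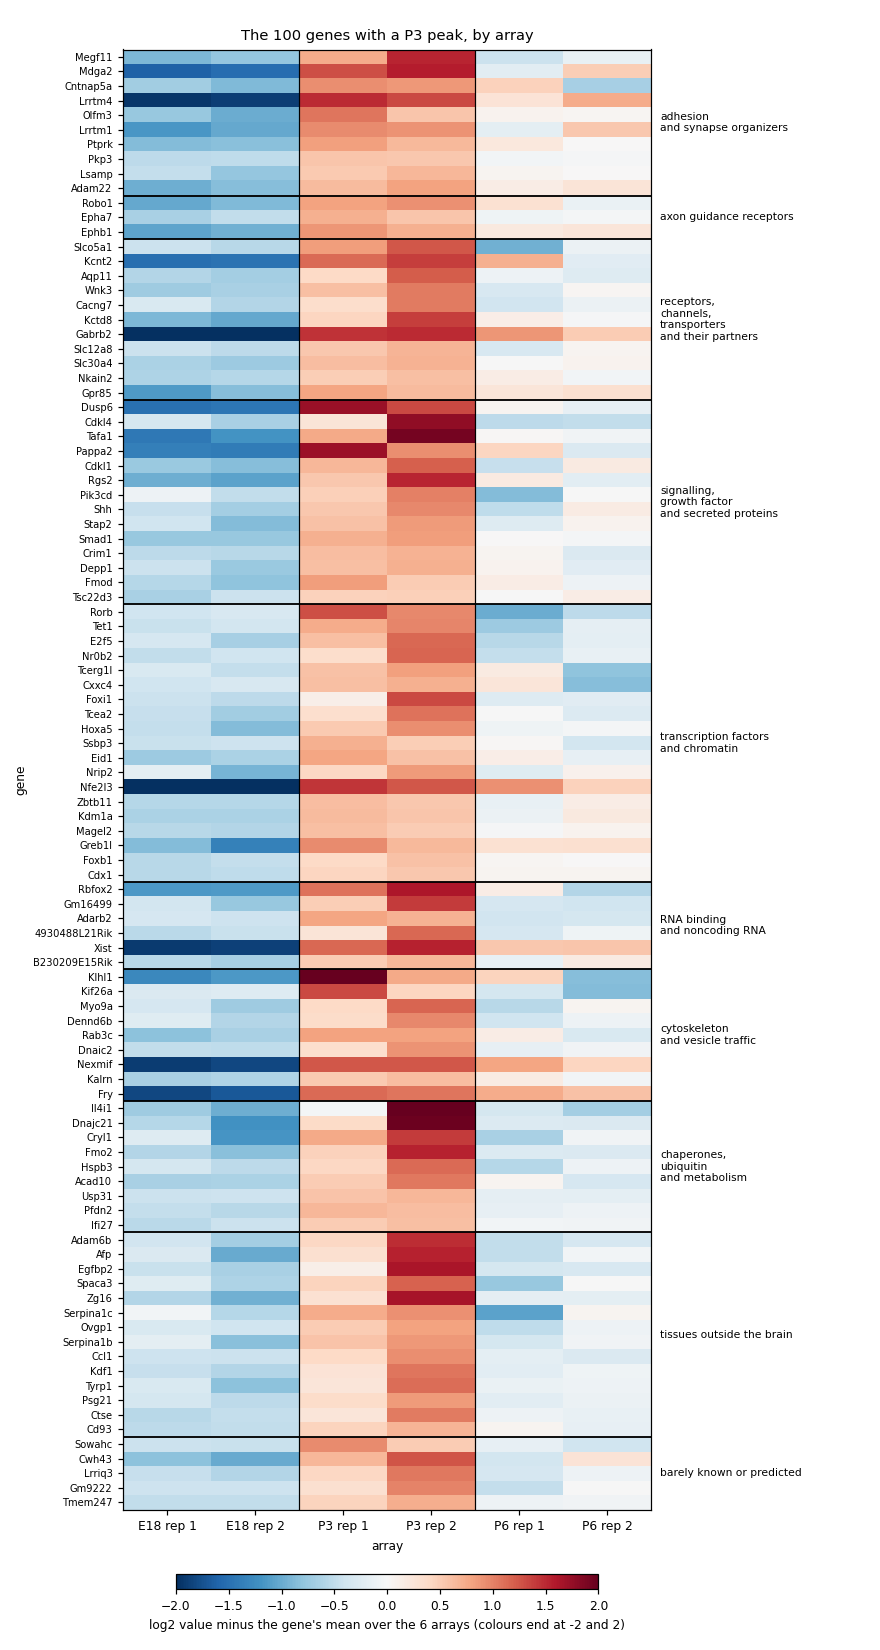
Each row is 1 of the 100 members and each column 1 of the 6 arrays. Colour gives the log2 value minus the gene's mean over the 6 arrays, from -2 (blue) to 2 (red), and black lines separate the 10 functional groups and the 3 stages. The P3 columns are the reddest in every row, and P3 replicate 2 is redder than replicate 1 in all 14 genes of tissues outside the brain.

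Adhesion proteins and synapse organizers gave 10 members with a median P3 minus E18 difference of 1.69 log2 units. Mdga2, a membrane-anchored immunoglobulin protein that binds neuroligins and limits their synapse-forming contacts, measured 7.24 and 7.34 log2 units at E18, then 10.15 and 10.43 at P3, then 8.66 and 9.36 at P6. It was 8.0-fold higher at P3 than at E18 and 2.43-fold higher at P3 than at P6, and the arrays of the 3 stages did not overlap. Lrrtm4, a postsynaptic leucine-rich repeat protein that organizes excitatory synapses, measured 4.67 and 4.74 at E18, then 8.12 and 7.95 at P3, then 6.90 and 7.36 at P6. Its E18 values lay below the lower quartile of those arrays (5.16 and 5.15) and were not shown to be above background, so no fold is given. For its relative Lrrtm1 the values were 8.05 and 8.19 at E18, then 10.15 and 10.10 at P3, then 9.0 and 9.75 at P6. The P6 arrays of Lrrtm1 thus differed more from each other than the P3 arrays did. Of its 2 further probe sets, 1 was highest at P3 and 1 at P6. The latter measured 7.53 and 7.64 at E18, then 8.48 and 7.36 at P3, then 8.89 and 8.46 at P6.

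The tallest peak in the same group, 1.42 log2 units, was that of Megf11, a transmembrane protein that spaces neurons of the retina. Megf11 measured 6.56 and 6.69 at E18, then 8.2 and 8.99 at P3, then 7.03 and 7.31 at P6, with 27.6% of the rise left at P6. Cntnap5a, a contactin-associated protein, had a peak of 0.997. Lsamp, a membrane-anchored immunoglobulin protein, stood at 8.36 and 8.06, then 9.35 and 9.49, then 8.89 and 8.83, while its only further probe set was highest at P6, at 7.88 and 7.87, then 8.57 and 8.25, then 9.17 and 8.44. Adam22, a synaptic receptor for secreted LGI proteins, kept 68.4% of its rise at P6, the share of the log2 difference between P3 and E18 that is still present between P6 and E18. Ptprk, a receptor tyrosine phosphatase, kept 60.5% and Olfm3, a secreted olfactomedin, 55.1%.

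The axon guidance members were 3 receptors. Robo1, the receptor through which Slit proteins repel axons, measured 6.81 and 6.94 at E18, then 8.64 and 8.75 at P3, then 8.13 and 7.69 at P6. Ephb1, a tyrosine kinase receptor for B-type ephrins, measured 9.33 and 9.41 at E18, then 11.26 and 11.09 at P3, then 10.57 and 10.63 at P6, and was among the 10 members with the highest P3 mean. Epha7, a receptor for A-type ephrins, measured 9.20 and 9.35, then 10.56 and 10.40, then 9.76 and 9.82. Its 3 further probe sets, however, all had their highest mean at P6. In the chosen probe sets of all 3 receptors the P6 arrays lay between those of the other stages without overlap, and their 2 P3 arrays were within 0.5 log2 units.

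Among receptors, channels and transporters, Gabrb2 had the widest rise of all members. It encodes the beta2 subunit of the GABA-A receptor, the chloride channel opened by GABA, and measured 7.28 and 7.32 at E18, then 10.91 and 10.95 at P3, then 10.35 and 9.98 at P6. Its 12.4-fold difference between P3 and E18 was followed by a 1.70-fold difference between P3 and P6. Kcnt2, a sodium-activated potassium channel, measured 5.04 and 5.06, then 7.68 and 7.92, then 7.25 and 6.31, so its P6 arrays differed by nearly a log2 unit. Its E18 values lay below the lower quartile of those arrays (5.16 and 5.15) and were not shown to be above background. Kctd8, an auxiliary subunit of the GABA-B receptor, measured 6.42 and 6.29, then 7.76 and 8.71, then 7.45 and 7.30. Gpr85, an orphan receptor of the brain, was bright at every age, with 9.84 and 10.12, then 11.76 and 11.61, then 11.22 and 11.29.

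Slco5a1, an organic anion transporter, had the most complete return in this group. It measured 6.99 and 6.86 at E18, then 8.25 and 8.65 at P3, then 6.45 and 7.29 at P6, and its P6 and E18 arrays overlapped. Cacng7, an auxiliary subunit of AMPA-type glutamate receptors, kept 16.5% of its rise, and Slc30a4, a zinc transporter, kept 53.5%. P3 replicate 2 was the higher P3 array in 10 of these 11 genes.

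The signalling and secreted proteins gave 14 members, led by Dusp6, Cdkl4, Tafa1 and Pappa2 in peak height. Dusp6 is the cytoplasmic phosphatase that switches off ERK kinases and is itself induced by ERK signalling. It measured 6.01 and 6.06 at E18, then 9.23 and 8.83 at P3, then 7.55 and 7.35 at P6, so no stages overlapped and the 7.96-fold difference between P3 and E18 kept 47.2% of its log2 size at P6. Dusp6 was the only member on either the immediate early list (1 of 26) or the growth factor and ERK list (1 of 41). Cdkl4, a cyclin-dependent kinase-like protein, measured 6.79 and 6.49, then 7.40 and 8.91, then 6.63 and 6.65, and here the height rested on P3 replicate 2, while its only further probe set was highest at P6.

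Tafa1, a small secreted protein of neurons, measured 5.92 and 6.16 at E18, then 8.11 and 9.26 at P3, then 7.37 and 7.29 at P6. Pappa2, a secreted protease that frees insulin-like growth factor from its binding proteins, measured 6.90 and 6.87, then 9.97 and 9.19, then 8.70 and 7.98. Rgs2, which shortens signalling through G proteins, measured 8.06 and 7.97, then 9.58 and 10.57, then 9.22 and 8.83. Of its 3 further probe sets, 2 had their highest mean at P3 and 1 at P6. The brightest of the 3 had stage means of 8.91, 9.02 and 9.03. Smad1, a mediator of BMP signals, had tight arrays at 9.28 and 9.28, then 10.74 and 10.87, then 10.04 and 10.0002. Crim1, a BMP-binding membrane protein used as a layer 5 marker, measured 7.94 and 7.91, then 9.08 and 9.15, then 8.51 and 8.17. Depp1, a stress-responsive target of FoxO factors, and Pik3cd, the delta catalytic subunit of phosphatidylinositol 3-kinase, were among the brightest members, with P3 means of 11.81 and 11.23. Of the 5 further Pik3cd probe sets, 1 was highest at P3 and 4 at P6. The ligand gene Shh measured 7.80 and 7.58, then 8.82 and 9.22, then 7.77 and 8.43, so its P6 arrays spanned the upper E18 value.

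Transcription factors and chromatin proteins were the largest group, with 19 members. Rorb, a nuclear receptor that marks layer 4 neurons, measured 6.99 and 7.08 at E18, then 8.68 and 8.35 at P3, then 6.4 and 6.86 at P6. It was 2.79-fold higher at P3 than at E18 and 3.68-fold higher at P3 than at P6, and both of its P6 arrays lay below both E18 arrays. Tet1, an enzyme that oxidizes methylated cytosine, measured 7.65 and 7.72, then 8.84 and 9.07, then 7.37 and 7.92, so its P6 arrays fell on both sides of the E18 values. Of the 3 further Tet1 probe sets, 1 was highest at E18, 1 at P3 and 1 at P6. The brightest of them had stage means of 8.15, 7.58 and 6.56. E2f5, a repressive E2F factor of the cell cycle, measured 10.35 and 10.02, then 11.28 and 11.83, then 10.12 and 10.48, with 8.70% of its rise left.

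Nfe2l3, a leucine zipper factor of the NRF family, behaved differently from these 3 genes. It measured 7.50 and 7.47 at E18, then 10.94 and 10.76 at P3, then 10.43 and 9.97 at P6, a 10.3-fold difference between P3 and E18 of which 80.6% was left in log2 terms. Kdm1a, a histone demethylase that serves as a corepressor in neurons, measured 10.13 and 10.12, then 11.40 and 11.31, then 10.64 and 10.95. Eid1, an inhibitor of the acetyltransferase p300, was the brightest member, at 10.99 and 11.08, then 12.50 and 12.30, then 11.84 and 11.55. Of its 2 further probe sets, 1 was highest at P3 and 1 at P6, the latter with stage means of 10.27, 10.69 and 11.27. Hoxa5, Foxi1, Foxb1 and Cdx1, which pattern other parts of the embryo, had P3 means of 9.35, 7.30, 6.66 and 6.70.

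Among RNA-binding and noncoding members, Rbfox2, a splicing regulator of neurons, measured 7.06 and 7.07 at E18, then 9.29 and 9.82 at P3, then 8.35 and 7.62 at P6. Adarb2, an RNA-binding relative of the editing enzymes that also marks interneurons, measured 6.6 and 6.52, then 7.73 and 7.63, then 6.55 and 6.58, and so returned to its E18 level within 0.01 log2 units. Xist, the noncoding RNA that silences 1 X chromosome in female cells, measured 8.23 and 8.27, then 11.30 and 11.68, then 10.68 and 10.70. The Y-linked gene Kdm5d ran the other way, at 8.32 and 8.31, then 5.31 and 5.61, then 3.93 and 4.86, and Eif2s3y measured 7.53 and 7.56, then 5.56 and 5.56, then 4.09 and 5.52. The sex of the animals was not given, so the mix of sexes and the stage cannot be told apart for Xist. Xist, Wnk3, Nexmif and Tsc22d3 were the 4 X-linked members, 4% of the 100 against 3.2% of all 13545 genes.

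The 9 members grouped under cytoskeleton and vesicle traffic included Klhl1, an actin-binding Kelch protein of neurons. It measured 6.64 and 6.79 at E18, then 10.01 and 8.70 at P3, then 8.38 and 7.09 at P6, so replicate 1 was more than a log2 unit higher at both later stages. Kif26a, an unconventional kinesin, had the same order of arrays, with 9.23 and 9.26, then 10.83 and 9.95, then 9.16 and 8.65, and a P6 mean below its E18 mean. Nexmif, an X-linked regulator of neurite growth sorted into this group, measured 8.0 and 8.07, then 11.13 and 11.14, then 10.69 and 10.33. Fry, which organizes microtubules and cell shape, measured 7.66 and 7.79, then 10.62 and 10.55, then 10.23 and 10.08, and its 85% was the highest share of a rise left at P6. Rab3c, a GTPase of synaptic vesicles, kept 42.4% and Kalrn, a signalling protein that shapes dendritic spines, kept 57.2%.

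Chaperones and metabolic enzymes gave 9 members, the tallest of which leaned on P3 replicate 2. Il4i1, an oxidase of aromatic amino acids, measured 6.59 and 6.33 at E18, then 7.27 and 10.07 at P3, then 6.95 and 6.62 at P6. It had the tallest mean peak of all members and P3 arrays 2.81 log2 units apart. Dnajc21, a cochaperone of ribosome assembly, measured 7.42 and 6.78, then 8.37 and 9.94, then 7.72 and 7.71. Of its 4 further probe sets, 2 had their highest mean at E18 and 2 at P3. Fmo2, a flavin-containing monooxygenase, measured 7.96 and 7.72, then 9.02 and 10.10, then 8.28 and 8.26. Cryl1, a sugar-acid dehydrogenase, measured 9.71 and 8.79, then 10.73 and 11.36, then 9.33 and 9.90. Of its 3 further probe sets, 1 was highest at P3 and 2 at P6. The brightest of the 3 had stage means of 7.38, 7.46 and 8.67. In Hspb3, a small heat shock protein also used as a callosal marker, the values were 6.10 and 5.93, then 6.87 and 7.59, then 5.88 and 6.35.

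Another 14 members are known from tissues outside the brain. Afp, the fetal serum protein of liver and yolk sac, measured 6.33 and 5.59 at E18, then 6.93 and 8.14 at P3, then 6.11 and 6.55 at P6. Of its 4 further probe sets, 2 were highest at P3 and 2 at P6. Their means over the 6 arrays, 3.94 to 4.94, lay below the lower quartiles of the arrays (5.15 to 5.40). Egfbp2, a kallikrein-type protease of the salivary gland, measured 6.03 and 5.83, then 6.59 and 8.09, then 6.12 and 6.16. Zg16, a lectin of secretory granules, measured 6.74 and 6.36, then 7.63 and 8.98, then 7.15 and 7.13. Its further probe sets, 1 highest at P3 and 1 at P6, had means over the 6 arrays of 4.47 and 4.75. In this group P3 replicate 2 was the higher P3 array in 14 of 14 genes, by a median of 0.76 log2 units, and the median E18 level was 6.13. Spaca3, Serpina1c and Adam6b were the others among the 25 tallest peaks, at 1.19, 1.14 and 1.36. The separate list of genes of tissues outside the brain drawn up for this series held 0 members among 14 genes with a mean of at least 6. Over the 15 genes of that list tested by limma, median differences were 0.43 for P3 minus E18 and 0.13 for P6 minus P3. Limma called 5 of the 15 higher at P3 than at E18, against 15.5% of all genes. The array medians of its 14 genes were 6.46 and 6.52 at E18, then 6.86 and 7.21 at P3, then 6.94 and 6.74 at P6.

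The 2 P3 arrays differed by less than 0.5 log2 units in 59 of 100 members, against 58.7% of all genes with a mean of at least 6. P3 replicate 2 was the higher of the pair in 74 of 100 members, against 31.6% of all genes. Level alone moved that share among all genes, from 59.6% for means of 6 to 7 to 11.4% for means of at least 9, and among the members it was 22 of 26 at means of 6 to 7 and 18 of 29 at means of at least 9. In 11 members the P3 arrays were at least 1 log2 unit apart, with replicate 2 higher in 10 of them and Klhl1 the exception. Of the 59 members with close P3 arrays, 19 were on a function list and the median share of the rise left at P6 was 47.2%. Of the 30 members with P3 arrays 0.5 to 1 apart, 2 were on such a list, with 25.8% left, and of the 11 farther apart 0 were, with 23.4% left. Splitting the members by the agreement of their P3 arrays was chosen after the values were seen.

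**Figure D3:**
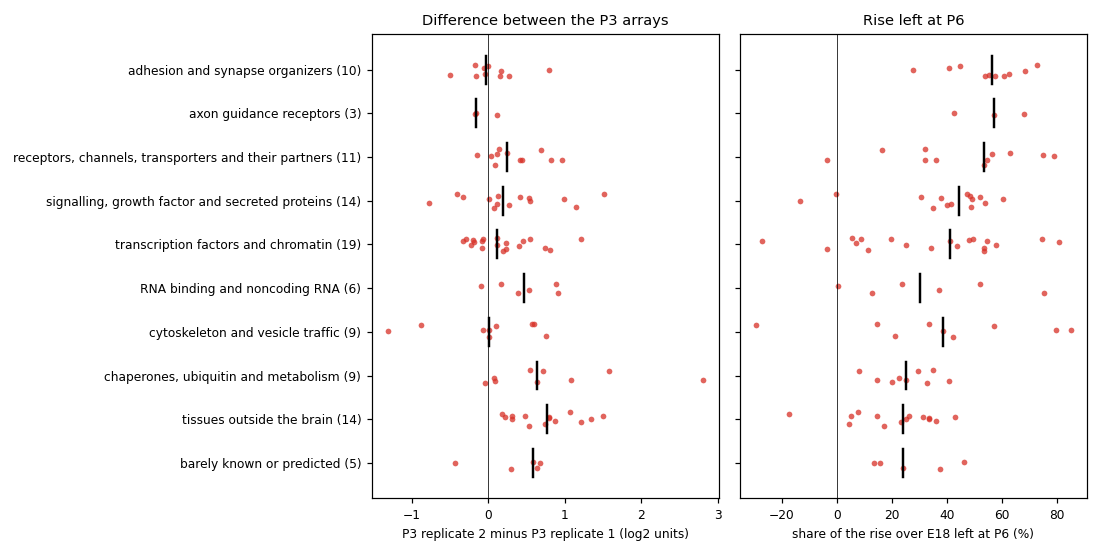
Left, P3 replicate 2 minus P3 replicate 1 (log2 units). Right, the share (%) of the P3 minus E18 difference left at P6. Each point is a member, rows are the 10 functional groups with their number of members, and black bars are medians. Genes of tissues outside the brain all lie right of 0 in the left panel (median 0.76), while adhesion and synapse organizers centre on -0.03 and keep a median of 56.2% of their rise.

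Leaving out 1 array at a time and applying the rule to the remaining 5, with no limit on the number of genes, kept 60 members in every case. This shows which arrays the choice of members rests on and is no test of it, since leaving out an array can never narrow the gap and a member can be lost only through the mean rise or the mean level. Without an E18 array 5 or 9 members were lost. Without P3 replicate 1, 5 members (Kif26a, Sowahc, Cwh43, Ssbp3 and Olfm3) missed the rule, whereas without P3 replicate 2, 33 did, among them Il4i1, Cdkl4, Hspb3 and Pik3cd. The 14 genes of tissues outside the brain lost 11 without P3 replicate 2 and 0 without P3 replicate 1, and the 10 adhesion proteins and synapse organizers lost 0 and 1.

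In the limma fit over 13645 genes (moderated test on log2 values, Benjamini-Hochberg adjustment over all of them), 97 of 100 members passed adjusted p below 0.05 for P3 minus E18, all higher, where 41.3% of all genes were called and 15.5% were called higher. The rule used this contrast, and the 3 that missed were Il4i1, Cxxc4 and Pik3cd, with limma adjusted p of 0.0527, 0.0588 and 0.0509. For P6 minus P3, limma called 0 of 100 members and 0 of 13645 genes, a share of 0%. An unadjusted p below 0.05 was reached by 92 of 100 members and 2696 of all genes in that contrast. The smallest adjusted p among the members was that of Rorb, whose P6 minus P3 difference was -1.88 ± 0.23 log2 units (SE, limma adjusted p = 0.0981). Without P3 replicate 1, limma called 61 members and 3922 genes in all for this contrast, with the single P3 array assumed to vary like the other stages. With all 6 arrays, the later side of the peak rests on the order of 4 arrays per gene, fixed by the rule.

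Between P6 and E18 the rule set no direction, although it kept both stages below P3 and used the same E18 arrays for the rise. Of 100 members, 28 were called higher at P6 than at E18 and 0 lower, where 31.7% of all genes were called, 14.8% higher and 16.9% lower. That count fell to 11 without E18 replicate 1 or without E18 replicate 2 and to 10 with the E18 arrays averaged, was 17 without P6 replicate 1, and reached 43 without P3 replicate 1 and 44 without P3 replicate 2, so the counts by group below hold for the 6-array fit only. Of these 28 members, 23 had P3 arrays within 0.5 log2 units and 23 kept at least 50% of their rise. With the mean of all probe sets of a gene, 35 of 92 members tested were called higher at P6 than at E18 and 3 lower. Among all 13645 genes tested in that setting, 2164 were called higher and 2341 lower. Both P6 arrays lay above both E18 arrays in 74 of 100 members, against 43.4% of all 13545 genes, the arrays overlapped in 24, against 19.1%, and both P6 arrays lay below both E18 arrays in 2, against 37.5%.

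The members with the largest difference between P6 and E18 were Gabrb2, at 2.86 ± 0.24 log2 units or 7.28-fold (SE, limma adjusted p = 0.000166), followed by Nfe2l3 at 2.71, Nexmif at 2.47, Xist at 2.44 and Fry at 2.43. Lrrtm4 was 2.42 ± 0.20 log2 units higher at P6 than at E18 (limma adjusted p = 0.000152), Kcnt2 1.73 and Mdga2 1.72, and all 8 passed the test. The E18 values of Lrrtm4 and Kcnt2 were not shown to be above background, so the size of their differences is uncertain. Dusp6 stood 1.41 ± 0.22 above E18 at P6 (limma adjusted p = 0.00261) and Robo1 1.04 ± 0.23 (limma adjusted p = 0.0123). A further Robo1 probe set went the other way, with 7.48 and 7.68 at E18 and 7.33 and 7.06 at P6. In the remaining, dimmer Robo1 probe set, P6 minus E18 was 0.05. In their chosen probe sets, the members named above had a high P3 level and a P6 level still well over E18. The word transient describes those readings less well than a rise with a partial decline. Counted by share, 29 members kept at least 50% of their rise at P6, 39 kept 25 to 50% and 32 kept under 25%, with a median of 36.5%.

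At the other end, 7 members had a P6 mean below their E18 mean. P6 minus E18 was -0.40 ± 0.23 log2 units in Rorb (limma adjusted p = 0.231), -0.34 in Kif26a, -0.20 in Serpina1c and -0.14 in Pik3cd. It was -0.05 in Slco5a1, -0.04 in Tet1, -0.00 in Cdkl4 and 0.01 in Adarb2, and none of these 8 passed the test. Of the 25 tallest peaks, 4 (Dusp6, Tafa1, Mdga2 and Pappa2) were called higher at P6 than at E18. Among all genes 14.8% were called higher, the share to set beside this count and those by group. The groups are small and were made after the values were seen, so their order is a description. By group, calls were made in 6 of 10 adhesion and synapse organizers, 2 of 3 axon guidance receptors and 5 of 11 receptors and channels. Signalling and secreted proteins gave 5 of 14, transcription factors and chromatin proteins 5 of 19 and RNA-binding and noncoding genes 2 of 6. The cytoskeleton and vesicle traffic group gave 2 of 9, Nexmif and Fry. The remaining groups gave 1 of 5 barely known genes, 0 of 9 chaperones and metabolic genes and 0 of 14 genes of tissues outside the brain.

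**Figure D4:**
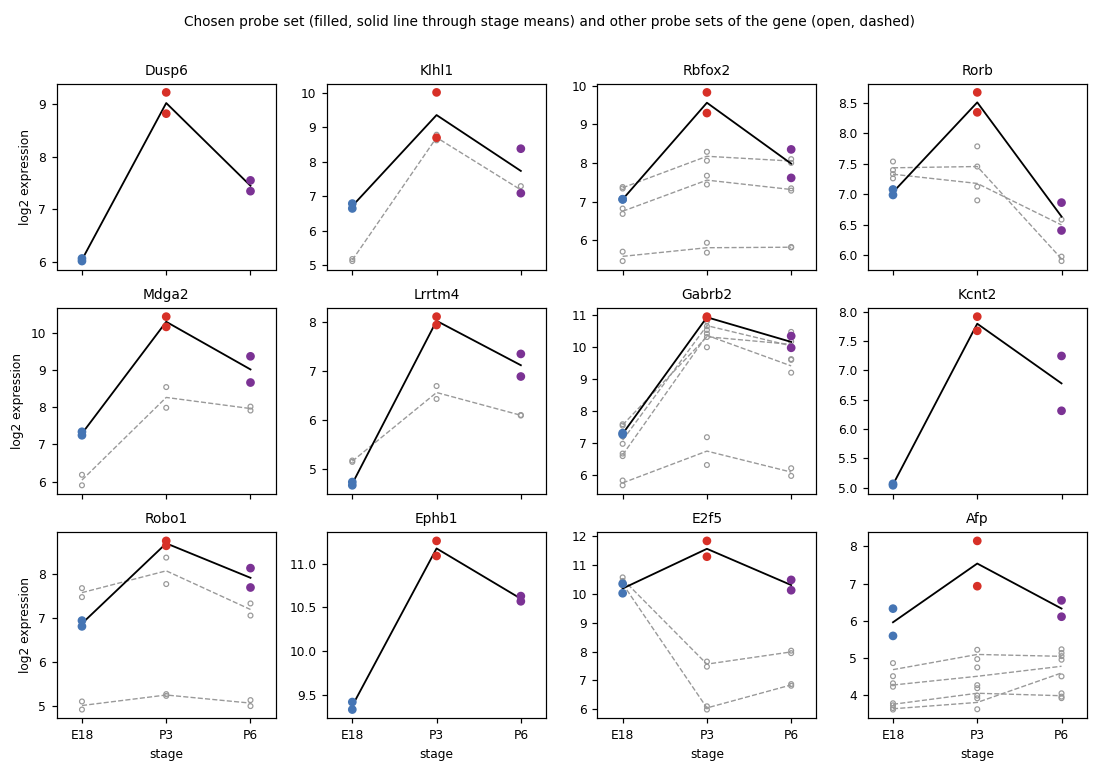
Log2 expression of 12 members at E18, P3 and P6 (x axis, stage). Filled points are the 2 arrays of each stage for the probe set that represents the gene, joined through stage means by a solid line, and open grey points with dashed lines are its other probe sets. Klhl1, Lrrtm4 and Gabrb2 show the P3 maximum in a further probe set, whereas other probe sets of E2f5 are lowest at P3 and those of Rorb differ little between E18 and P3.

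Other probe sets for the same gene, which the rule did not use, gave a separate reading of the same arrays. A total of 71 members had 148 further probe sets and 29 members had none. P3 had the highest stage mean in 92 of the 148 (62.2%), against 37.3% of the further probe sets of all genes with a mean of at least 6. Both P3 arrays lay above the other 4 in 37 (25%), against 13.4%, and the whole rule was met by 7 (4.73%), against 0.943%. Further probe sets share the RNA and the arrays with the chosen ones, and some share its target sequence, so these shares are a description.

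The 7 genes with a further probe set that met the rule were Klhl1, Lrrtm4, Gabrb2, Kalrn, Fmod, Serpina1b and Xist. The second Klhl1 probe set measured 5.12 and 5.17 at E18, then 8.78 and 8.62 at P3, then 7.29 and 7.08 at P6, with closer replicates than the first. The second for Lrrtm4 measured 5.15 and 5.18, then 6.70 and 6.44, then 6.11 and 6.10. Fmod, the matrix proteoglycan fibromodulin, measured 4.36 and 4.50, then 8.23 and 8.01, then 7.59 and 5.77 in its second probe set. Gabrb2 had 4 further probe sets, all with their highest mean at P3. In Kalrn, however, 1 of 7 further probe sets met the rule, 3 were highest at P6 and 1 at E18, and in Fmod 1 of 5 did, although all 5 had their highest mean at P3.

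Further probe sets of other members had other profiles. Both further probe sets of E2f5 were lowest at P3, and the brighter of them at E18 measured 10.57 and 10.44, then 7.65 and 7.48, then 8.03 and 7.95. A Ctse probe set measured 8.16 and 8.10 at E18, then 5.51 and 5.69 at P3, then 5.89 and 5.30 at P6. The further Rorb probe sets measured 7.26 and 7.40, then 7.46 and 6.90, then 6.4 and 6.58, and 7.33 and 7.54, then 7.79 and 7.12, then 5.90 and 5.97, which share the low P6 level, while P3 exceeded E18 in the mean of the second alone, by less than the spread of its P3 arrays. A Smad1 probe set measured 9.51 and 9.58, then 9.50 and 8.0, then 7.52 and 8.72, and averaging all Smad1 probe sets gave a P6 minus E18 difference of -0.19 (limma adjusted p = 0.596) in place of 0.74. Such cases were common. Of the 148 further probe sets, 44 had their highest mean at P6 and 12 at E18. Of the 71 members with further probe sets, all of them were highest at P3 in 31 members, some in 24 and none in 16, the last including Epha7, Lsamp, Shh, Hoxa5, Cdkl1, Cdkl4 and Greb1l. Which transcripts each probe set reads was not tested. Among the members, 15% were read by a probe set of the x_at type, whose probes also match other transcripts, against 4.36% of all genes.

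Membership was also set beside 30 function lists and 18 cell type marker lists. Of 968 function-list genes with a mean of at least 6, 21 were members (2.17%), and of 210 marker genes 4 were, against 0.738% of all genes. The list of immunoglobulin and leucine-rich adhesion proteins held 5 members of 51 genes (9.80%), namely Mdga2, Cntnap5a, Lrrtm4, Lrrtm1 and Lsamp. In that list as a whole, limma called 30 genes higher and 5 lower at P3 than at E18, and 35 higher and 4 lower at P6 than at E18. Its median P6 minus P3 difference was 0.28 log2 units, above the 0.16 of all genes tested, whereas the rule required a lower level at P6 in its 5 members. The axon guidance list held 3 of 44 (6.82%), with 9 genes higher and 13 lower at P3 than at E18 and 13 higher and 14 lower at P6 than at E18. The chromatin and DNA methylation list held Tet1 and Kdm1a among 49 genes, of which 4 were called higher and 17 lower at P3 than at E18.

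Marker lists of other cells gave 4 members, Crim1 for layer 5, Rorb for layer 4, Hspb3 for callosal neurons and Adarb2 for interneurons, each the only member of its list. Radial glia and progenitor genes (0 of 14), proliferation genes (0 of 20), astrocyte genes (0 of 15), microglial genes (0 of 12) and oligodendrocyte lineage genes (0 of 10) gave none. Median P3 minus E18 differences were -5.10 log2 units for progenitor genes, -4.97 for proliferation genes, -1.82 for astrocyte genes and -1.86 for microglial genes. The layer 4 list had 5 of 13 genes called higher and 3 lower at P3 than at E18, with a median P6 minus P3 difference of -0.19. The part of these changes in cell makeup in the level of any member was not tested.

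**Figure D5:**
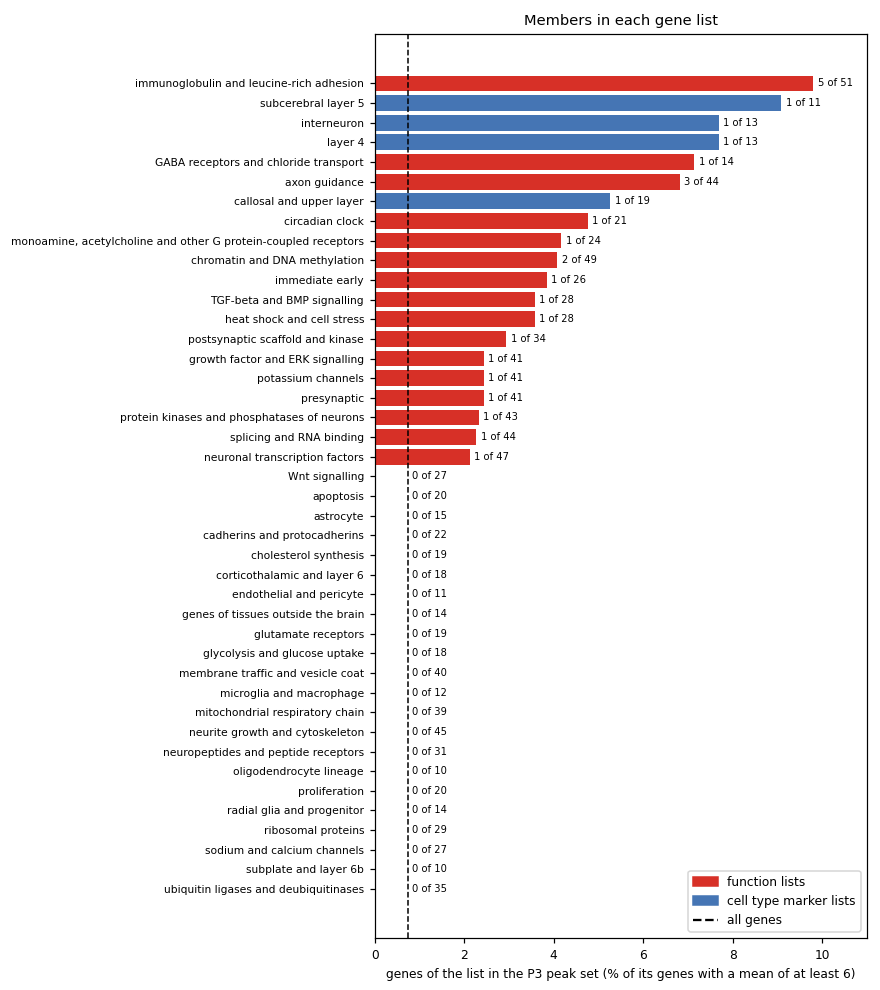
Share of each list's genes with a mean of at least 6 that are members (x axis, %), for the lists shown, each with at least 10 such genes. Bars are function lists (red) or cell type marker lists (blue), labels give members of genes, and the dashed line marks 0.738% for all genes. Immunoglobulin and leucine-rich adhesion proteins have 5 of 51 and axon guidance genes 3 of 44, and most lists have 0 or 1.

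Promoter letters were compared because the members were high at the same age. RefSeq promoter windows on the GRCm38.p6 build, running from 250 bases before to 50 bases after a gene's start, were found for 81 members and gave 100 windows. They had a median GC content of 55.3%, against 60.3% in 13870 windows of genes with a mean of at least 6, and a median CpG ratio (observed over expected from base composition) of 0.50, against 0.72. The 11 windows of genes from tissues outside the brain had the lowest, 48% and 0.25, and the other 89 had 56.7% and 0.58. Windows differ in GC content, and motif shares can differ with it.

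The windows below are printed because Klhl1, Lrrtm4 and Gabrb2 met the rule in a further probe set, Dusp6 had the tallest peak among genes whose P3 arrays were within 0.5 log2 units, Rorb had the smallest p for P6 minus P3, and Afp stands for the genes from outside the brain. Letters run 5′ to 3′ on the strand of the gene, the window that RefSeq's table lists first was taken where a gene had several, and capitals mark matches on either strand to motifs named afterwards.
Dusp6, chr10:99262981-99263280, plus strand: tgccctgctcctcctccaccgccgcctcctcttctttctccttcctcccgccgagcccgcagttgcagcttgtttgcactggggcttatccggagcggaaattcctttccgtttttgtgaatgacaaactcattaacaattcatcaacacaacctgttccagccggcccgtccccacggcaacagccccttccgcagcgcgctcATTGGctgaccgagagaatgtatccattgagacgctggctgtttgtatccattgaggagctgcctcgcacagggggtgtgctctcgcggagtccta
Klhl1, chr14:96518985-96519284, minus strand: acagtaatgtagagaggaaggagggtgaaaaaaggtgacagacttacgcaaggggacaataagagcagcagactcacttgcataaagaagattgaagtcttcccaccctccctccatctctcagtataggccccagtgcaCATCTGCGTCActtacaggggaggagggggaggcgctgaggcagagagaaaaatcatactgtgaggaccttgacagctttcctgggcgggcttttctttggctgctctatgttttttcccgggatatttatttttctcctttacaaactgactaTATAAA
Lrrtm4, chr6:80018627-80018926, plus strand: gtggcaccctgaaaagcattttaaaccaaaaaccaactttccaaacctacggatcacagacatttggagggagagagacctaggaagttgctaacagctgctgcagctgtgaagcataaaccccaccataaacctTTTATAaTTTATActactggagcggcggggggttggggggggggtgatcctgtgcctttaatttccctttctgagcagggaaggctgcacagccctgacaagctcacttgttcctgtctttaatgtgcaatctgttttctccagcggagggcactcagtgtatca
Gabrb2, chr11:42420190-42420489, plus strand: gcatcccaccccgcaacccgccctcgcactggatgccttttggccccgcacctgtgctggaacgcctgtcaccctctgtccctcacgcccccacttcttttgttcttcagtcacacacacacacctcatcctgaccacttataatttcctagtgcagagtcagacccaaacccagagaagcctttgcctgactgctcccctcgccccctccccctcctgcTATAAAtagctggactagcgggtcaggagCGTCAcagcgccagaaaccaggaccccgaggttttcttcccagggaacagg
Rorb, chr19:19111147-19111446, minus strand: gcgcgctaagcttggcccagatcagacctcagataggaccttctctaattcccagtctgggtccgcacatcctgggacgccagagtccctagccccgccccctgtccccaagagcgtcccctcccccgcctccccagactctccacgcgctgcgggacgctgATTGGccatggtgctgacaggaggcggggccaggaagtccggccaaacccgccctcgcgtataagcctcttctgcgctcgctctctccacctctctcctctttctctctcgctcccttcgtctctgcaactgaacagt
Afp, chr5:90490464-90490763, plus strand: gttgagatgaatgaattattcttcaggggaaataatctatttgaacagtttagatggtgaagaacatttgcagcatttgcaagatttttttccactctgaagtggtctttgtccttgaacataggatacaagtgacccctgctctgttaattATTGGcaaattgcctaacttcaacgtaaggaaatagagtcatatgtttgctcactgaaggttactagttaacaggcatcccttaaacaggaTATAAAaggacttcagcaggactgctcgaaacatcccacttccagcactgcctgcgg

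Capitals in Dusp6 and Rorb mark the CCAAT box (CCAAT, read as its complement), with first bases at -46 and -88 relative to the start, where the start itself is 1. Those in Klhl1 mark an E-box (CAGATG) at -110 and the cyclic AMP response half-site (TGACG) at -104, both on the opposite strand and adjoining, and a TATA motif (TATAAA) at 45. Lrrtm4 had the TATA motif at -115 and -108 on the opposite strand. Gabrb2 had it at -30 and the TGACG half-site at -1, and Afp had CCAAT at -98 and TATAAA at -7. The TATA motif was in 12% of member windows, against 7.92% of windows of genes with a mean of at least 6, CCAAT in 39% against 37.5%, CAGATG in 12% against 12.2%, and TGACG in 20% against 29.3%. The ETS motif CCGGAAG, bound by factors downstream of ERK, was in 2% of member windows against 15.4%. The nuclear receptor half-site AGGTCA was in 18% against 12.9%, and in 6 of the 11 windows of genes from outside the brain. Those 6 include both windows of Spaca3, which overlap. Windows of the same gene were counted separately in all these shares. These are matches of letters and say nothing of binding.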

How the data were processed

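RNA of 6 samples (2 arrays each at E18, P3 and P6) was measured on Affymetrix mouse expression arrays. The submitters' processing notes name RMA, with which the authors made the deposited log2 value of each probe set. Its version, and whether the arrays were run together, are not given in the sources used here. RNA was extracted with a StrataPrep kit and labelled with an Enzo kit, per the labels' protocols. Arrays have no read depth, and their number limits the precision. Of 45101 probe sets, 34945 had 1 symbol, 932 several, 9160 none and 64 were controls. The members and the gene lists were chosen with earlier results of these data known. Genes named with values were the 25 tallest peaks (clone-numbered symbols passed over), the 10 highest P3 means, the 8 largest and 8 smallest P6 minus E18 differences, list members, members with a further probe set and those nearest each limit; other members were named after their values were seen. Limma 3.58.1 in R 4.3.3 was fitted to stage means on all 6 arrays (3 residual degrees of freedom, intensity trend), leaving out the dimmest 25% of genes, and was tested on simulated data. Same-numbered samples did not deviate together (correlations -0.20, 0.037 and -0.14). With 2 arrays per stage this cannot show whether the numbers pair samples, and the main fit did not pair them. Alternatives were other normalizations, probe set rules, limits, covariates and left-out arrays. Tables were made with pandas 2.3.3 in Python 3.11.15. The share of members in 1 gene list is not reported here.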

Additional observations from a re-analysis of the deposited data

How the results depend on the processing

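The number of members was 240 after quantile normalization (97 of the 100 shared), 54 with the mean of all probe sets (38 shared), 245 with a gap of 0, 25 with a gap of 0.6, 184 with a rise of 0.5, 48 with a mean of at least 8, and 94 to 300 when single arrays were left out, where 300 is the limit on the number, without which 461 genes met the rule without P3 replicate 1. With arrays centred on their medians it was 77 (76 shared), and without probe sets ending x_at, s_at or a_at, an alternative chosen after seeing the data, 82 (72 shared). Members called for P6 minus E18 numbered 28, against 18 with the lowest 50% of genes left out (62 members tested), 10 with the E18 arrays averaged, 15 with hybridization controls as a covariate, 42 with array weights, and 11 to 44 without single arrays. For P3 minus E18 they numbered 97, against 61 with the lowest 50% of genes left out, 56 with the E18 arrays averaged, 50 with hybridization controls as a covariate, and 48 to 96 without single arrays. For P6 minus P3 the count was 0 in every setting except without P3 replicate 1, where 61 members and 3922 genes in all were called, giving a range of 0 to 61. Without E18 replicate 1 or 2, or with them averaged, fewer genes were called in all contrasts with E18, and those arrays correlated at 0.998. With the replicate block, calls were 24 for P6 minus E18, 99 for P3 minus E18 and 0 for P6 minus P3. With the mean of all probe sets, 38 of 92 members tested were called for P6 minus E18, 35 higher and 3 lower. The Smad1 P6 minus E18 difference reversed to -0.19 in that setting. Single-array settings assume that a stage with 1 array varies like the others. Over the 28 members called, 300 of 408 repeated values kept their call, 107 lost it at the same direction and 1 reversed, and the causes were not tested.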

Other observations

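Probe sets without a gene name also had P3 peaks. Of 4063 probe sets with several symbols or none and a mean of at least 6, 50 (1.23%) met the rule, 47 with no symbol and 3 with several. The tallest, with no symbol, had means of 8.0 log2 units at E18, 10.65 at P3 and 8.84 at P6.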
